A study of Homo sapiens with 24 samples.

Results

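Mucins are large glycoproteins of epithelial surfaces, and 9 genes of this family were examined in 3 human breast cancer cell lines grown in low or high glucose. The genes were MUC1, MUC4, MUC13, MUC15, MUC16 and MUC20, which encode membrane-bound mucins, and MUC2, MUC5AC and MUC5B, which encode secreted gel-forming mucins. They were taken by symbol from a table of 18889 genes, and 8 of the 9 were found there; MUC13 was not analysed here. The genes had been selected on their measured values in these same libraries, both between glucose levels and between lines, so their levels and changes are given as a description with no p value. The lines were MDA-MB-175, ZR-75-30 and also HCC1500, and all 3 are labelled as estrogen receptor positive. Each line was held for 48 h in medium with 5 mM glucose (LG) or 25 mM glucose (HG), with 4 libraries per line and glucose level and 24 libraries in all. According to the study's methods, cells of every group were first conditioned in low glucose and the test media held no serum. No group with an osmotic control is among the samples analysed here, so glucose and osmolarity cannot be told apart. The labels do not say whether the 4 replicates came from separate cultures started on different days, and p values then measure only the spread between these libraries, which may be technical.

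A mucin carries long stretches rich in proline, threonine and serine that are densely covered with O-linked sugars. Gel-forming mucins are packed into granules, secreted and cross-linked into mucus, with MUC2 best known from intestinal goblet cells and MUC5AC and MUC5B from airways. Membrane-bound mucins stay at the apical cell surface, where their cytoplasmic tails can take part in signalling. MUC1 is the mucin classically produced by breast epithelium and carries the antigen of a serum marker used in breast cancer, whereas MUC2 marks the mucinous type of breast carcinoma.

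The genes lie at 5 places of the genome, given here in GRCh37 coordinates of the GENCODE annotation. MUC1 (ENSG00000185499) spans chr1:155158300-155162707 on the minus strand. MUC2 (ENSG00000198788, chr11:1074875-1104416), MUC5AC (ENSG00000215182, chr11:1151580-1222364) and MUC5B (ENSG00000117983, chr11:1244296-1283402) stand in a row on the plus strand, with 47164 bases between MUC2 and MUC5AC and 21932 bases between MUC5AC and MUC5B. MUC20 (ENSG00000176945, chr3:195447755-195467994, plus strand) lies 5642 bases from MUC4 (ENSG00000145113, chr3:195473636-195538844, minus strand). MUC15 (ENSG00000169550) is at chr11:26580579-26593810 and MUC16 (ENSG00000181143) at chr19:8959520-9121066, both on the minus strand.

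The 250 bases before the start site are shown for MUC1 and MUC2, since MUC1 had the highest level per length in every group and little change in MDA-MB-175 and ZR-75-30, whereas MUC2 showed the largest change of the secreted mucins. They come from RefSeq on GRCh38.p14 and are written 5′ to 3′ on the gene's strand, chr1:155192916-155193165 on the minus strand for MUC1 and chr11:1074624-1074873 on the plus strand for MUC2. Of the 8 genes, 4 (MUC1, MUC2, MUC4 and MUC16) had an entry.
MUC1: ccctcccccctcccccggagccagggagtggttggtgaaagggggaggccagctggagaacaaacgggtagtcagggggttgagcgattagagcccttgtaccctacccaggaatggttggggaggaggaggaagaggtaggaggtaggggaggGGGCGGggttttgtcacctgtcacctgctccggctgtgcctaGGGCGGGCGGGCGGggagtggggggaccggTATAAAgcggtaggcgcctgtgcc
MUC2: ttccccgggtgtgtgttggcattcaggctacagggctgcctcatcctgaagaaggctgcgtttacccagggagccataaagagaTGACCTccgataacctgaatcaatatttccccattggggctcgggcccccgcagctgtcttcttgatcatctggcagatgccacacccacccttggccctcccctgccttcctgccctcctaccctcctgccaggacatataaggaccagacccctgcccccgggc
Capitals mark matches, on either strand, to any of 7 motifs searched, namely the E-box CACGTG, the hypoxia core ACGTG that lies within it, the GC box GGGCGG, the TATA box TATAAA, the STAT motif TTCNNNGAA, the forkhead motif TGTTTAC and the nuclear receptor motif AGGTCA. The MUC1 window held 4 matches to the GC box, of which 3 overlap each other, and 1 to the TATA box 24 bases before the start. The MUC2 window held 1 match, to the nuclear receptor motif, on the opposite strand 166 bases before the start. Among 35116 promoter windows of the same length, 42.6% held the GC box, 10.7% the TATA box and 12.1% the nuclear receptor motif. The E-box was found in 6.3%, the hypoxia core in 18.5%, the STAT motif in 6.6% and the forkhead motif in 3.0%. GC content was 66.0% in the MUC1 window and 59.6% in the MUC2 window.

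The libraries held between 9140024 and 17998819 reads, recovered from the deposited normalized values, and 3 reads corresponded to a value of 0.95 to 2.29 depending on the library. All values below are these normalized values, and changes are differences in log2(value + 1), HG minus LG, with their standard error (SE). All 10 markers of luminal breast epithelium, ESR1, GATA3 and KRT18 among them, had a mean of at least 10 in each of the 6 groups. CDH1 among them was far lower in ZR-75-30 LG (55.6 ± 6.51) than in MDA-MB-175 LG (6499 ± 11.1) and HCC1500 LG (8223 ± 41.4). The summed level of the 10 markers was lower in HG in ZR-75-30, at 50338 to 57088 against 71614 to 76282 in LG. It overlapped in MDA-MB-175 (74886 to 85362 in LG, 73800 to 79867 in HG) and in HCC1500 (45554 to 47514 and 40841 to 66633). The HCC1500 overlap came from HG replicate 3 alone, and the other HG libraries lay below the LG range. Abundant genes weigh most in these sums, and single markers differed. In ZR-75-30 XBP1 changed by -0.47 ± 0.04 and EPCAM by 0.22 ± 0.04. In HCC1500 without HG replicate 3, XBP1 changed by -0.36 ± 0.02 and ESR1 by 0.29 ± 0.02. Of the intestinal markers, CDX1 and CDX2 were not analysed here, and VIL1 had means between 10.4 (ZR-75-30 HG) and 44.8 (HCC1500 HG, SD 55.5). The 3 measured leukocyte markers, CD68, LYZ and CD14, summed to 5.54 to 6.84 in ZR-75-30 LG and 33.6 to 43.9 in HG, to 2.15 to 5.08 in HCC1500 LG and 11.2 to 29.0 in HG, and to 12 to 23.7 in MDA-MB-175; CD68 in ZR-75-30 and CD14 in HCC1500 made up most of the HG level, and PTPRC and CD3E were not analysed here. The 7 fibroblast markers summed to 115 to 139 in MDA-MB-175 LG and 140 to 179 in HG, to 101 to 117 and 78.6 to 97.7 in ZR-75-30, and to 265 to 295 and 222 to 285 in HCC1500. LUM among them rose in MDA-MB-175 from 21.9 ± 2.21 to 58.7 ± 9.96 and in HCC1500 from 29.5 ± 3.54 to 47.1 ± 2.72 (limma adjusted p = 4.4e-06 and 0.0083). Others went the other way. COL1A2 fell in MDA-MB-175 from 18.8 ± 2.04 to 10.7 ± 2.28 (limma adjusted p = 0.0086). COL1A1 changed in HCC1500 by -0.32 ± 0.10, or by -0.39 ± 0.06 without HG replicate 3 (limma adjusted p = 0.058 and 2.2e-05). The part of these luminal, leukocyte and fibroblast marker levels in the mucin values was not tested. In bulk RNA a smaller number of expressing cells and less RNA per cell cannot be told apart. One library, HCC1500 HG replicate 3, stood apart, with a mean correlation of 0.911 with the other libraries of its group, against 0.990 or more for each of the other 23 libraries (computed without it), and HCC1500 changes of the members and the counts of each list are given with and without it.

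The order of the mucins below first place differed between lines. Per kilobase of merged exons, MUC1 led in every group, at 2016 in MDA-MB-175 LG, 571 in ZR-75-30 LG and 76.9 in HCC1500 LG. Second place went to MUC5B in MDA-MB-175 LG (146) and in HCC1500 LG (60.8), but to MUC2 in ZR-75-30 LG (438). In high glucose MUC20 took second place in MDA-MB-175 (178, with MUC5B at 152), while MUC2 (70.9) and MUC20 (62.4) were close in ZR-75-30. These values per kilobase rest on exon lengths of a newer annotation than the one used for counting, in which the models of MUC2 and MUC5AC are partial.

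**Figure D1:**
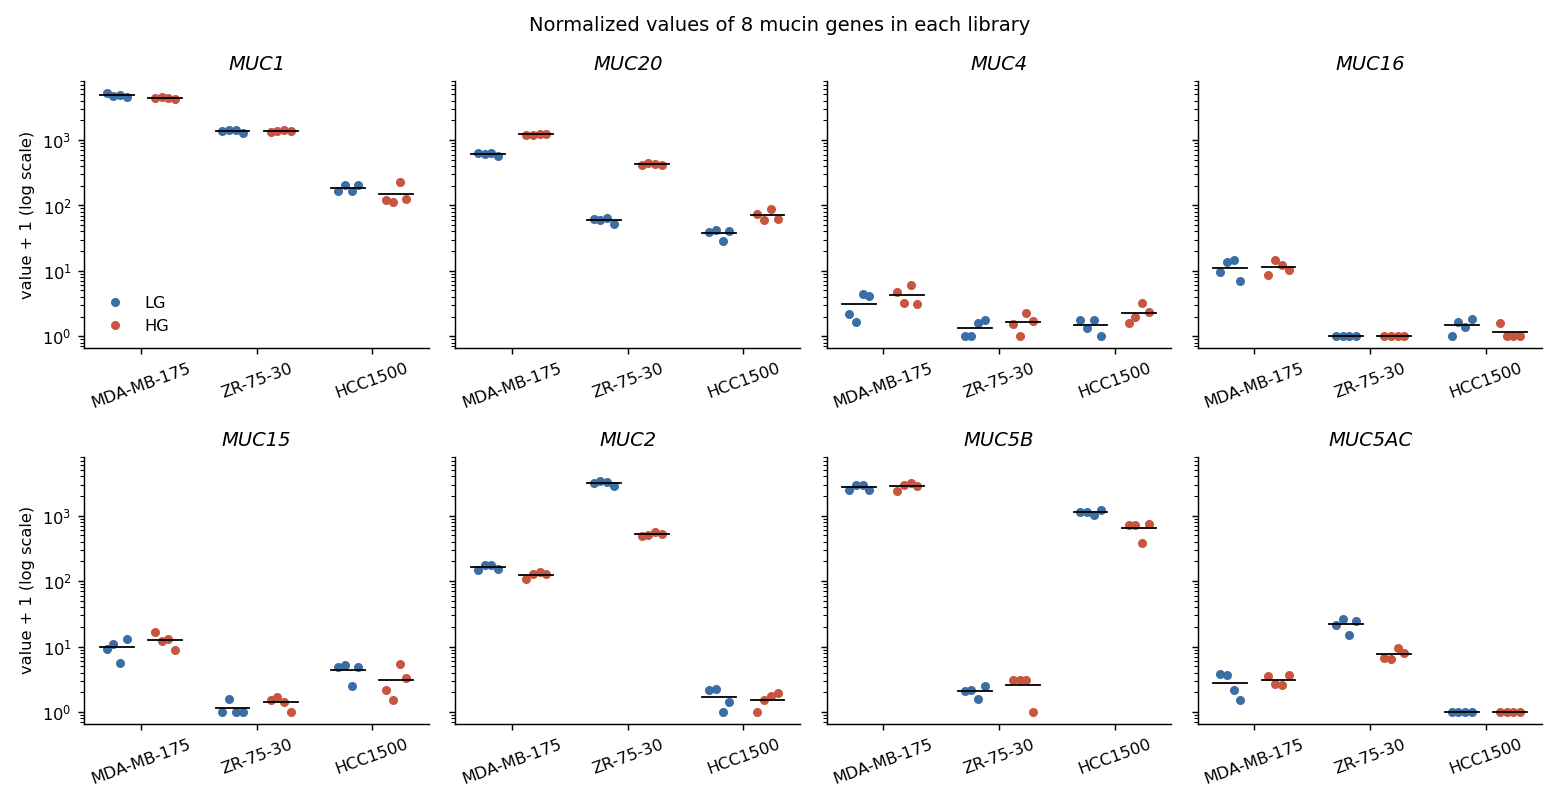
Normalized value plus 1 on a log scale for 8 mucin genes, with 1 point per library (4 per group, LG in blue, HG in red) and a line at the group mean. MUC20 was higher in HG in all 3 lines, MUC2 dropped in ZR-75-30, and MUC5B was near 0 in ZR-75-30.

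MUC1 was ordered MDA-MB-175 above ZR-75-30 above HCC1500, with no overlap between lines. In MDA-MB-175 the LG libraries read 5223, 4743, 4875 and 4517 and the HG libraries 4468, 4542, 4424 and 4215. The ranges overlapped, and the change was small, -0.13 ± 0.05. In ZR-75-30 the LG values of 1358, 1421, 1417 and 1283 were matched by HG values of 1310, 1362, 1443 and 1370.0, a change of 0.00 ± 0.04 (95% interval -0.09 to 0.09). HCC1500 held far less, at 167, 203, 167 and 201 in LG and 121, 113, 229 and 123 in HG. Here 3 HG libraries lay below every LG library and replicate 3 lay above them all, so that the change was -0.39 ± 0.22 with all libraries and -0.62 ± 0.08 without replicate 3. Compared at low glucose in 1 model of all 24 libraries, MUC1 was lower in ZR-75-30 than in MDA-MB-175 by a log2 difference of -1.82 ± 0.14 and lower in HCC1500 than in ZR-75-30 by -2.89 ± 0.14. That model shares 1 estimate of the spread, and each SE was 0.06 without HCC1500 HG replicate 3.

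MUC20, whose product is known to bind the MET receptor, was the only one of the 8 genes that was higher in HG without overlap in all 3 lines. In MDA-MB-175 it read 640, 618, 626 and 564 in LG and 1181, 1216, 1225 and 1256 in HG. The HG mean was 1.99 times the LG mean, with a log2 change of 0.99 ± 0.05. ZR-75-30 showed the widest gap, from 60.9, 58.0, 63.8 and 51.15 in LG to 409, 451, 431 and 416 in HG, a ratio of 7.30 and a change of 2.85 ± 0.08. HCC1500 went from 38.8, 40.7, 28.0 and 39.6 in LG to 73.7, 58.7, 86.1 and 60.5 in HG, a ratio of 1.90 and a change of 0.90 ± 0.18, or 0.80 ± 0.14 without HG replicate 3. The change in ZR-75-30 minus that in MDA-MB-175 was 1.86 ± 0.16, and the change in HCC1500 minus that in ZR-75-30 was -1.95 ± 0.16. For HCC1500 minus MDA-MB-175 the difference was -0.09 ± 0.16 (95% interval -0.42 to 0.24). Without HG replicate 3 the difference was -2.05 ± 0.13 for HCC1500 minus ZR-75-30. For HCC1500 minus MDA-MB-175 it was then -0.20 ± 0.13 (95% interval -0.48 to 0.08). As a level, MUC20 in MDA-MB-175 LG (612 ± 33.2, SD, n = 4) was still above MUC20 in ZR-75-30 HG (427 ± 18.6), and ZR-75-30 LG and HCC1500 HG overlapped.

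MUC20 shares sequence with other loci, which bears on its counts. Of the 5004 windows of 50 bases in its longest transcript, 34.6% also occurred in another gene, 1310 of them in the pseudogene MUC20P1, which was not analysed here, and 789 in the overlapping long noncoding RNA MUC20-OT1. That RNA, listed under the older symbol AC069513.3, shares 1851 exon bases with MUC20 on the same strand. Its mean was 94.4 ± 5.29 in MDA-MB-175 LG and 104 ± 6.01 in HG, 54.1 ± 6.80 and 74.7 ± 9.20 in ZR-75-30, and in HCC1500 it went from 287 ± 37.1 to 213 ± 29.0. Its changes were 0.14 ± 0.08, 0.46 ± 0.12 and -0.43 ± 0.14, with adjusted p = 0.23, 0.0048 and 0.054 in limma with Benjamini-Hochberg adjustment over all genes tested, and in HCC1500 -0.34 ± 0.08 with adjusted p = 0.0015 without HG replicate 3. In every line its change was smaller in size than that of MUC20, and in HCC1500 it had the opposite sign. Whether reads shared between these loci contribute to the MUC20 values was not tested.

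MUC2 was abundant in ZR-75-30 and near 0 in HCC1500, where the 4 LG libraries held 8 reads together, so that the fitted log2 difference of -10.95 ± 0.20 between these lines at low glucose depends on the 1 added to each value. ZR-75-30 read 3214, 3427, 3340 and 2897 in LG and 491, 516, 562 and 517 in HG, which left the HG mean at 0.162 of the LG mean. In MDA-MB-175 the level was far lower, at 147, 178, 174 and 152 in LG, and the HG values of 107, 128, 135 and 126 again lay below all LG values. The change was -2.62 ± 0.05 in ZR-75-30 and -0.39 ± 0.09 in MDA-MB-175, and in the model of all libraries the first minus the second was -2.24 ± 0.28. HCC1500 showed no library above 1.27 in either medium, which is near the level of 3 reads, so no change could be seen at this depth. The drop in ZR-75-30 still left MUC2 in HG (522 ± 29.8) above MDA-MB-175 LG (163 ± 15.3), with no overlap between any of these 4 groups.

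MUC5AC, the neighbour of MUC2 on the same strand, was measurable mainly in ZR-75-30, at 20.5, 25.6, 14.2 and 23.7 in LG and 5.73, 5.40, 8.50 and 6.85 in HG. Its 4 LG libraries lay above all HG libraries, and the change was -1.52 ± 0.25. In MDA-MB-175 it ranged from 0.51 to 2.81, and in HCC1500 all 8 libraries were at 0. MUC2 and MUC5AC were thus both lower in HG in ZR-75-30, while the next gene in the row, MUC5B, ranged there from 0 to 2.12, about the level of 3 reads.

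MUC5B was abundant in the other two lines. MDA-MB-175 read 2488, 3004, 2961 and 2442 in LG and 2368, 2921, 3171 and 2819 in HG, with overlapping ranges and a change of 0.05 ± 0.08 (95% interval -0.12 to 0.22). HCC1500 read 1141, 1134, 1013 and 1238 in LG and 726, 717, 379 and 741 in HG, so that every HG library lay below every LG library. The change was -0.87 ± 0.21 with all libraries and -0.63 ± 0.05 without HG replicate 3, the lowest of them. It was not called in 5 of 19 alternative settings, among them without LG replicate 1, 2 or 4. At low glucose MUC5B was lower in HCC1500 than in MDA-MB-175 by -1.26 ± 0.27 on the log2 scale. Of the MUC5B transcript, 29.2% of the 50-base windows occur more than once within it, and 434 exon bases overlap the antisense RNA MUC5B-AS1, which was not analysed here. The study's methods name a stranded library kit for patient tumours and no kit for these lines. Whether the counting used strand is not given in the sources used here. The part of that antisense RNA in the MUC5B values was not tested.

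The remaining members were low. MUC16, which carries a serum marker antigen of ovarian cancer, ranged from 6.10 to 13.7 in MDA-MB-175, was at 0 in all 8 ZR-75-30 libraries and did not exceed 0.86 in HCC1500. MUC15 took values of 4.56 to 15.4 in MDA-MB-175 and 0.50 to 4.46 in HCC1500, with at most 0.68 in ZR-75-30. MUC4, a partner of ERBB2, did not exceed 5.08 in any library. For these genes LG and HG overlapped in each line, and the changes in MDA-MB-175 were 0.06 ± 0.27 for MUC16, 0.42 ± 0.28 for MUC15 and 0.54 ± 0.38 for MUC4. In HCC1500 MUC15 changed by -0.59 ± 0.43, or by -0.92 ± 0.39 without HG replicate 3, and MUC4 by 0.64 ± 0.33, or by 0.46 ± 0.44. MUC15 shares 175 exon bases with ANO3 on the opposite strand, and whether reads there were assigned by strand is not given in the sources used here.

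**Figure D2:**
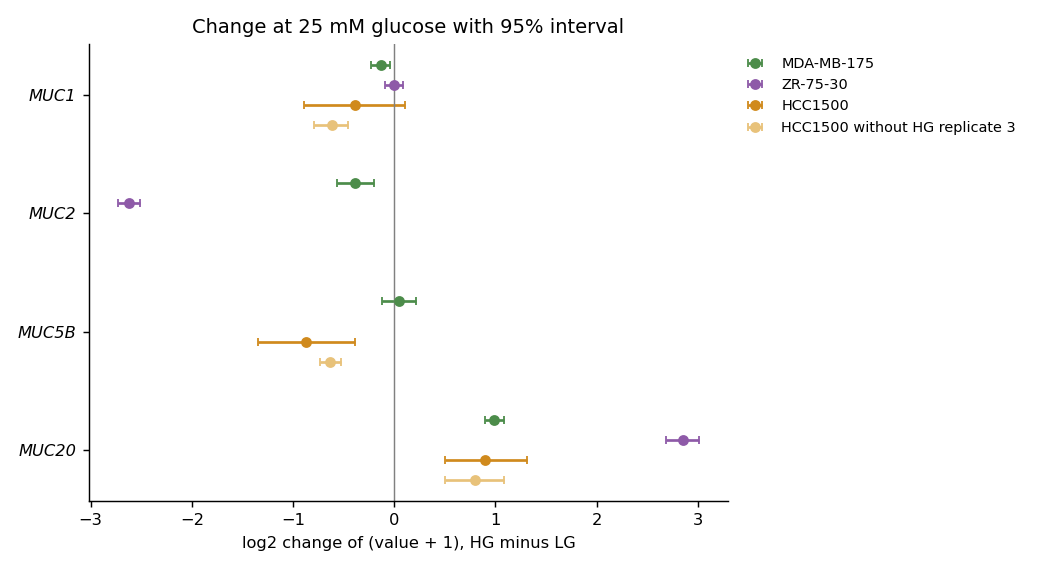
Log2 change of value + 1 (HG minus LG, horizontal axis) of MUC1, MUC2, MUC5B and MUC20 in each line; points are estimates and bars 95% intervals, and MUC2 in HCC1500 and MUC5B in ZR-75-30, both at a few reads, are left out. MUC20 is to the right of 0 in every line and MUC2 to the left in MDA-MB-175 and ZR-75-30. Without HG replicate 3 the HCC1500 interval of MUC1 no longer crosses 0.

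The number of members past an adjusted p of 0.05 is given beside the share of all genes past it, and nothing is read from it, since these contrasts chose the members. In MDA-MB-175 all 8 were tested and 3 passed, MUC20 upward and MUC1 and MUC2 downward, where 25.7% of all tested genes passed (11.9% upward and 13.7% downward). The call of MUC1 there was lost in 11 of 19 alternative settings. In ZR-75-30, 6 were tested and 3 passed, MUC20 upward and MUC2 and MUC5AC downward, against 46.0% of all tested genes (23.4% upward, 22.7% downward). In HCC1500, 6 were tested and 2 passed, MUC20 upward and MUC5B downward, against 20.5% (7.46% upward, 13.0% downward). Without HG replicate 3 the HCC1500 share of all genes was 58.5% (20.9% upward, 37.7% downward), and MUC20, MUC1 and MUC5B passed of 5 tested. In HCC1500 the split of all calls depended on scaling, with 1221 upward and 2129 downward as deposited and 1723 and 1800 after median-of-ratios scaling, 1709 and 1867 in edgeR and 2323 and 2109 in DESeq2 on recovered reads. In MDA-MB-175 the balance turned, from 2030 upward and 2338 downward to 2339 and 2069 after median-of-ratios scaling, 2347 and 2055 in edgeR and 2068 and 1861 in DESeq2. In ZR-75-30 the 3700 upward and 3590 downward calls became 3349 and 4155 when all libraries were set to the same total. Between lines at low glucose all 8 members passed for MDA-MB-175 against ZR-75-30 (63.8% of all genes) and against HCC1500 (72.6%), and 6 passed for ZR-75-30 against HCC1500 (73.0%), the exceptions being MUC4 and MUC16. For these line differences the median over all genes depended on scaling, moving from -0.18 to -0.37 for ZR-75-30 minus MDA-MB-175, from 0.05 to 0.16 for HCC1500 minus MDA-MB-175 and from 0.23 to 0.54 for HCC1500 minus ZR-75-30 when all libraries were set to the same total. The response to glucose differed between lines for 3 of 8 members (29.3% of all genes), MUC2, MUC5AC and MUC20, and for 5 without HCC1500 HG replicate 3, which added MUC1 and MUC15, where 48.6% of all genes passed.

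HCC1500 HG replicate 3 deviated in step with gene length. Its ratio to the mean of the other 3 HG libraries had a median log2 of 1.06 over 1170 genes with under 2000 exon bases, 0.60 over 4485 genes of 2000 to 5000 bases, 0.03 over 4689 genes of 5000 to 10000 bases and -0.41 over 2004 longer genes. MUC1, with 2401 exon bases, was 1.93 times the mean of the others in this library. MUC20 (6837 bases) was at 1.34 times and MUC5B (18598 bases) at 0.520 times. The order of the 3 genes followed their length, and the part of the library's deviation in their values was not tested further than by leaving it out.

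**Figure D3:**
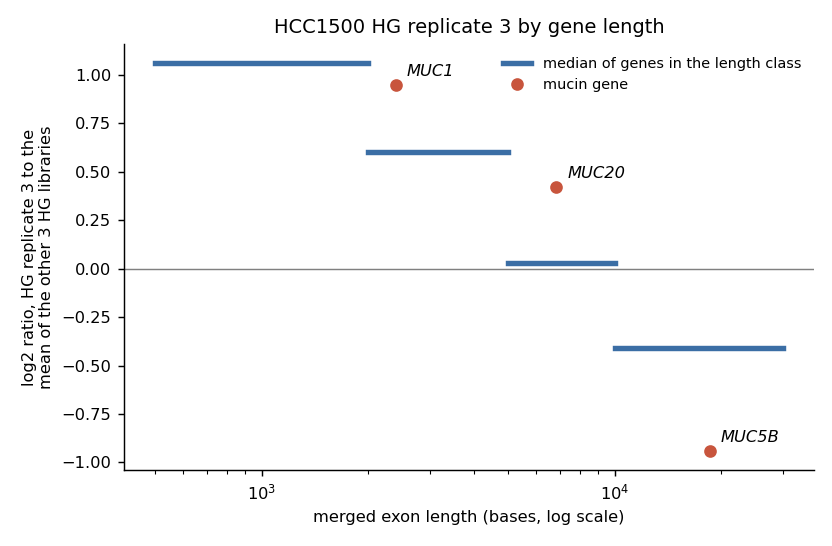
Log2 ratio of HCC1500 HG replicate 3 to the mean of the other 3 HG libraries against merged exon length (log scale), for MUC1, MUC20 and MUC5B (points) and as the median over genes in 4 length classes (bars; genes with a mean of at least 10 in the other 3 libraries). The short gene MUC1 lies high at 0.95 and the long gene MUC5B low at -0.94.

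Added up per kilobase, the 8 genes gave 2277 ± 127 in MDA-MB-175 LG and 2188 ± 58.5 in HG (SD, n = 4), with overlapping ranges. In ZR-75-30 the sum went from 1020 ± 58.7 to 706 ± 28.3 without overlap, and in HCC1500 from 144 ± 13.0 to 107 ± 15.9. The HCC1500 overlap came from HG replicate 3 alone, at 130, since the other HG libraries gave 101, 94.4 and 101 and the lowest LG library 129. MUC1 made up 55.9% ± 0.670 of that sum in ZR-75-30 LG and 80.9% ± 0.291 in HG, while MUC2 went from 42.9% ± 0.687 to 10% ± 0.177. MUC20 took a larger share in HG in each line, 8.16% after 3.93% in MDA-MB-175, 8.85% after 0.837% in ZR-75-30 and 9.57% after 3.71% in HCC1500.

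**Figure D4:**
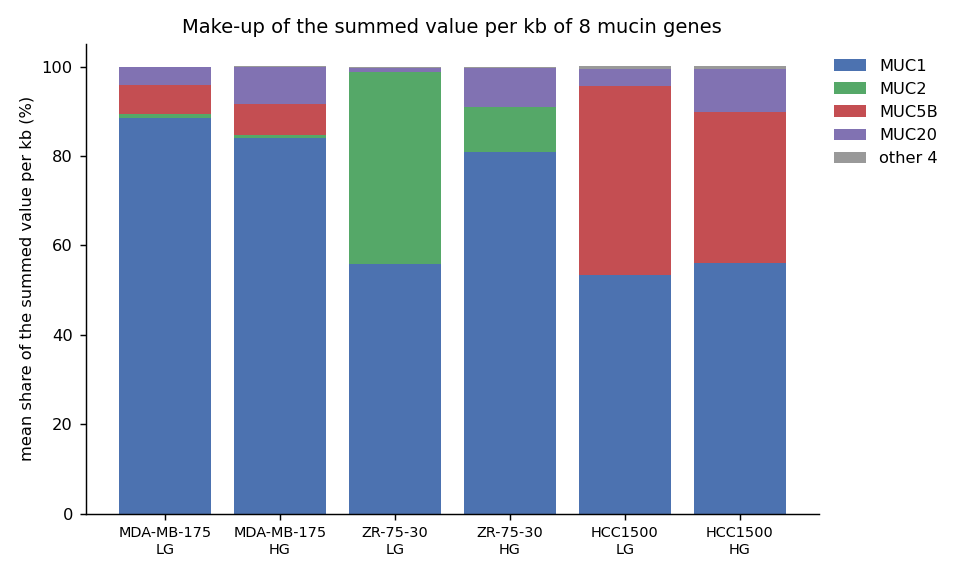
Mean share (%) of each mucin gene in the summed value per kilobase of the 8 genes, by line and glucose level (4 libraries each). MUC2 takes 42.9% in ZR-75-30 LG and 10% in HG, and MUC20 takes 8.16%, 8.85% and 9.57% in the HG groups.

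Other mucins and mucin-like genes were followed as a list, which like those below was put together with earlier results of these data known. Of 16 such genes 10 had values. In MDA-MB-175, 2 of 9 tested passed upward and 1 downward, in ZR-75-30 2 of 7 upward and 1 downward, and in HCC1500 3 of 7 upward and 1 downward. Their median change was -0.06, -0.02 and 0.47, beside -0.02, 0.01 and -0.06 over all tested genes. Without HG replicate 3 the HCC1500 counts were 4 upward and 1 downward of 7, at a median of 0.49 beside -0.12. Over all tested genes the share that passed in either direction was 25.7%, 46.0% and 20.5%, or 58.5% for HCC1500 without HG replicate 3. MUC3A, a membrane mucin of the intestine, rose in MDA-MB-175 from 159 ± 11.3 to 206 ± 7.73 (0.37 ± 0.07, adjusted p = 0.00064 in limma). MUC6, the gastric gel-forming mucin next to MUC2, fell in HCC1500 from 15.7 ± 2.91 to 6.62 ± 0.974 (adjusted p = 0.0045 in limma). In the same line MCAM, an adhesion molecule also called MUC18, rose from 21.8 ± 2.89 to 103 ± 8.21 and OVGP1, an oviduct glycoprotein, from 3.0 ± 0.586 to 12.9 ± 1.38 (limma adjusted p = 4.4e-05 and 0.00042). PODXL, a sialomucin, fell in MDA-MB-175 from 295 ± 19.0 to 189 ± 10.6 and rose in ZR-75-30 from 11.1 ± 1.48 to 17.5 ± 1.43 (limma adjusted p = 2e-06 and 0.019). CD164, another sialomucin, fell in ZR-75-30 by 0.16 on the log2 scale and rose in HCC1500 by 0.51 (limma adjusted p = 0.0016 and 0.0012).

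O-glycosylation begins with the GALNT enzymes, which attach GalNAc to serine or threonine. Of 20 listed genes of this step 16 had values. In MDA-MB-175 0 of 15 passed upward and 6 downward, in ZR-75-30 2 of 15 upward and 7 downward, and in HCC1500 1 of 13 upward and 7 downward. The share of all tested genes that passed downward was 13.7%, 22.7% and 13.0%. Median changes of the list were -0.20, -0.30 and -0.39, beside -0.02, 0.01 and -0.06 over all genes. Without HG replicate 3 the HCC1500 list had 3 upward and 9 downward of 13, where 37.7% of all genes passed downward, at a median of -0.53 beside -0.12. GALNT6 fell in all 3 lines, from 1611 ± 45.6 to 1433 ± 26.4 in MDA-MB-175, from 1477 ± 87.4 to 980 ± 40.2 in ZR-75-30 and from 1893 ± 67.1 to 903 ± 60.2 in HCC1500 (limma adjusted p = 0.0035, 4.5e-09 and 8.7e-05). GALNT10 fell likewise, by 0.32, 0.75 and 0.81 on the log2 scale (limma adjusted p = 1.3e-05, 9.2e-12 and 0.00058). GALNT7 fell in MDA-MB-175 and in ZR-75-30 and changed by -0.05 ± 0.20 in HCC1500, or by 0.17 ± 0.05 without HG replicate 3 (limma adjusted p = 0.0021, 2.2e-11, 0.89 and 0.012). GALNT12 fell in MDA-MB-175, from 99.8 ± 6.95 to 69.3 ± 4.14. GALNT13 fell in ZR-75-30, from 14.0 ± 3.49 to 6.66 ± 1.60, and in HCC1500, from 14.1 ± 2.67 to 7.28 ± 1.44 (limma adjusted p = 0.005 and 0.017). Larger falls in HCC1500 were those of GALNTL1, from 61.2 ± 4.04 to 17.8 ± 4.04, and GALNT14, from 31.5 ± 1.90 to 13.7 ± 3.80 (limma adjusted p = 0.00033 and 0.0034). Upward went GALNT11 and GALNT3 in ZR-75-30, by 0.29 ± 0.06 and 0.11 ± 0.04, and GALNT4 in HCC1500, by 0.61 ± 0.15 (limma adjusted p = 0.00087, 0.027 and 0.019), although the calls of GALNT3 and GALNT4 were lost in 8 and 7 of 19 alternative settings.

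For the enzymes that extend the sugar chain the directions were mixed. Of 23 listed genes 20 had values, and 7 of 20 passed upward and 2 downward in MDA-MB-175, 8 of 19 upward and 3 downward in ZR-75-30, and 3 of 16 upward and 2 downward in HCC1500. Of all tested genes 11.9%, 23.4% and 7.46% passed upward and 13.7%, 22.7% and 13.0% downward. Median changes were 0.09, 0.17 and -0.02, beside -0.02, 0.01 and -0.06 over all genes. Without HG replicate 3 the HCC1500 counts were 4 upward and 7 downward of 16, where 20.9% and 37.7% of all genes passed, at a median of 0.01 beside -0.12. FUT3, a fucosyltransferase of the Lewis antigens, rose in all 3 lines, from 44.1 ± 5.77 to 97.0 ± 6.28 in MDA-MB-175, from 18.2 ± 4.83 to 26.8 ± 1.93 in ZR-75-30 and from 1.80 ± 1.16 to 9.24 ± 3.50 in HCC1500 (limma adjusted p = 1.6e-06, 0.03 and 0.0073). B3GNT3, which extends the chain with GlcNAc, rose in MDA-MB-175 from 597 ± 14.4 to 932 ± 46.7 and in ZR-75-30 from 30.5 ± 6.18 to 61.7 ± 7.58 (limma adjusted p = 3.5e-08 and 2.9e-05). B4GALT4 rose in the same lines, and FUT2, the secretor fucosyltransferase, rose in ZR-75-30 from 8.24 ± 2.32 to 16.5 ± 1.24. The branching enzymes moved apart in ZR-75-30, where GCNT3 rose from 13.5 ± 3.03 to 58.2 ± 10.2 while GCNT1 fell from 577 ± 35.1 to 223 ± 24.3 (limma adjusted p = 5.6e-08 and 2.1e-11). GCNT1 also fell in HCC1500, from 388 ± 15.8 to 192 ± 23.1, and changed by -0.10 ± 0.06 in MDA-MB-175. C1GALT1, which adds galactose to the first sugar, rose in MDA-MB-175 and HCC1500 and fell in ZR-75-30, with changes of 0.27 ± 0.05, 0.50 ± 0.13 and -0.48 ± 0.07, and the call in HCC1500 was lost in 7 of 19 settings. The sialyltransferase gene ST6GALNAC2 fell in MDA-MB-175 (-0.33 ± 0.04) and HCC1500 (-1.17 ± 0.15) and rose in ZR-75-30 (0.53 ± 0.04), and the calls held in all 19 alternatives for MDA-MB-175 and for HCC1500. ST6GALNAC1 fell in MDA-MB-175, from 225 ± 10.1 to 184 ± 7.63, ST3GAL4 fell in ZR-75-30, by 0.23 on the log2 scale, and B4GALT1 rose in HCC1500 from 1061 ± 31.3 to 1520 ± 50.7.

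Genes of mucus-secreting cells were counted the same way, and 17 of 26 had values. In MDA-MB-175 2 of 17 passed upward and 10 downward, in ZR-75-30 1 of 15 upward and 9 downward, and in HCC1500 1 of 16 in each direction, where 13.7%, 22.7% and 13.0% of all tested genes passed downward. Their median changes were -0.17, -0.11 and -0.09, beside -0.02, 0.01 and -0.06. Without HG replicate 3 the HCC1500 counts were 1 upward and 11 downward, where 37.7% of all genes passed downward, at a median of -0.34 beside -0.12 over all tested genes. TFF1, a trefoil peptide secreted with mucins, fell in ZR-75-30 from 1803 ± 51.9 to 391 ± 9.08, a change of -2.20 ± 0.04 (adjusted p = 3e-17 in limma). It changed by -0.15 ± 0.06 in MDA-MB-175. TFF3 fell in MDA-MB-175 from 13189 ± 1615 to 9336 ± 759 and in ZR-75-30 from 9697 ± 609 to 5053 ± 571 (limma adjusted p = 0.00015 and 1.2e-09). In HCC1500 TFF3 changed by -0.25 ± 0.43 with all libraries and fell from 3453 ± 164 to 2036 ± 89.1 without HG replicate 3. TFF2 rose in MDA-MB-175 from 21.2 ± 3.57 to 63.8 ± 5.6. AGR2, a disulfide isomerase of the endoplasmic reticulum needed to make MUC2 in the gut, fell in ZR-75-30 from 11109 ± 269 to 6573 ± 216 and in MDA-MB-175 from 9851 ± 331 to 8900 ± 401 (limma adjusted p = 1.2e-11 and 0.019). In HCC1500 AGR2 changed by -0.15 ± 0.24, or by -0.43 ± 0.03 without HG replicate 3. FCGBP, a mucus protein, fell in MDA-MB-175 from 314 ± 26.3 to 157 ± 8.59, and ZG16B, a lectin-like protein, from 330 ± 34.2 to 240 ± 15.5. KLF4, a factor of goblet cell differentiation, rose in MDA-MB-175 and HCC1500, by 0.40 ± 0.06 and 1.05 ± 0.15. The HCC1500 change of KLF4 was 0.92 ± 0.11 without HG replicate 3, and that in ZR-75-30 was -0.03 ± 0.05. SPDEF of the same list, which the naming rule did not pick, changed by -0.38 ± 0.08 in MDA-MB-175 and 0.16 ± 0.05 in ZR-75-30. In HCC1500 SPDEF changed by -0.56 ± 0.28, or by -0.89 ± 0.04 without HG replicate 3. BCAS1 fell in HCC1500 from 10.7 ± 3.44 to 2.74 ± 2.79, a call lost in 7 of 18 alternative settings.

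**Figure D5:**
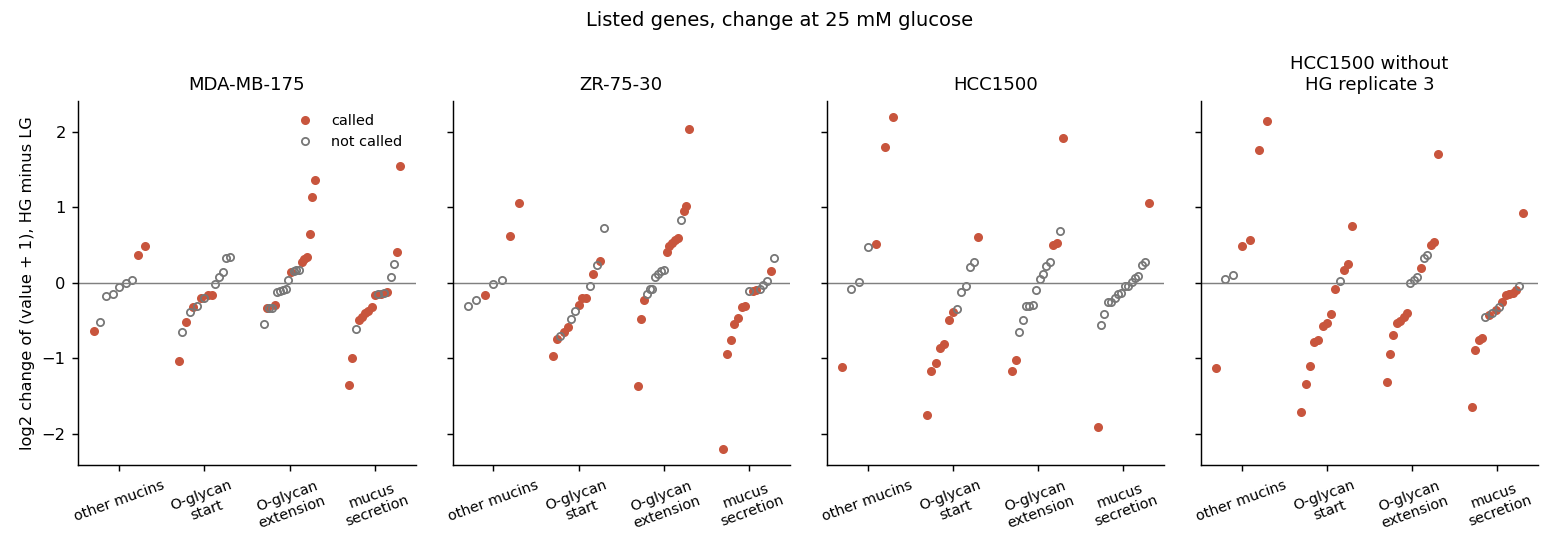
Log2 change (HG minus LG) of every tested gene of 4 lists, other mucins, O-glycan start, O-glycan extension and mucus secretion, with 1 point per gene in rising order, filled where the adjusted p was under 0.05 (limma), and HCC1500 shown with and without HG replicate 3. Of the O-glycan start genes 6, 7 and 7 passed downward and 0, 2 and 1 upward in the 3 lines. The HCC1500 mucus secretion genes went from 2 to 12 calls of 16 once HG replicate 3 was left out, while the share of all tested genes went from 20.5% to 58.5%.

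Genes around the mucin loci were checked for a shared change. Of 17 listed neighbours 14 had values, and 3 of 13 passed upward and 2 downward in MDA-MB-175, 3 of 13 upward and 2 downward in ZR-75-30, and 1 of 14 upward and 2 downward in HCC1500, with median changes of 0.09, -0.02 and -0.10, beside -0.02, 0.01 and -0.06 over all tested genes. The share of all genes that passed was 25.7%, 46.0% and 20.5%. Leaving out HG replicate 3 gave 3 upward and 6 downward of 14 in HCC1500, where 58.5% of all genes passed, at a median of -0.19 beside -0.12. In the row of chromosome 11 mucins in ZR-75-30, AP2A2 on one side of MUC2 fell by 0.20 on the log2 scale and TOLLIP beyond MUC5B changed by 0.04 ± 0.06, beside -2.62 ± 0.05 for MUC2. Next to MUC20 and MUC4 the changes in ZR-75-30 were 0.27 ± 0.04 for APOD, 0.39 ± 0.05 for PPP1R2 and 0.04 ± 0.05 for TNK2, beside 2.85 for MUC20. Of the other listed genes, SDHAP1 rose by 0.60 and HEG1 by 0.24 in ZR-75-30 while TFRC fell by 0.32 on the log2 scale, and HEG1 rose by 0.72 in MDA-MB-175. SDHAP1, HEG1, TFRC and SLC12A8 are not among the nearest protein-coding genes on either side of any member analysed. THBS3, beside MUC1, rose in MDA-MB-175 and ZR-75-30 by 0.44 and 0.30 and fell in HCC1500 by 0.73. AP2A2 fell in MDA-MB-175 too, by 0.19, TOLLIP rose in HCC1500 by 0.68 and SLC12A8 fell there by 0.68, a call lost in 8 of 19 settings.

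Genes whose pattern over the 24 libraries was most like that of a member were ranked by Pearson correlation of log2(value + 1) among 13310 genes with a mean of at least 10. The 24 libraries fall into 3 lines with large differences, so that these values mostly order the lines and carry no p value. For MUC1 they were SDC1 (0.998), which encodes the cell surface proteoglycan syndecan, SH2D4A (0.998) and FAM155B (0.995). SDC1 was at 7537, 2226 and 325 in LG of MDA-MB-175, of ZR-75-30 and of HCC1500. For MUC2 they included SLC16A6 (0.990) and PGM3 (0.989), an enzyme of UDP-GlcNAc synthesis. SLC16A6 had means of 425 and 268 in ZR-75-30 LG and HG, of 183 and 203 in MDA-MB-175, and of 60.6 and 49.5 in HCC1500. For MUC5B they were FRG1B (0.996), LRRN1 (0.995) and ENPEP (0.994), of which FRG1B and ENPEP were at 0 in ZR-75-30. For MUC20 the values were lower, with PTPRH (0.973), CTSB (0.970), a lysosomal protease, and CYSTM1 (0.970). PTPRH, a receptor-type phosphatase, went from 28.8 to 73.3 in MDA-MB-175, from 1.09 to 12.1 in ZR-75-30 and from 0.644 to 2.96 in HCC1500.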

How the data were processed

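The 24 libraries were 4 for each of 3 lines at 2 glucose levels. They were sequenced on an Illumina HiSeq, as both the labels and the study's methods state for these lines. The methods name a stranded mRNA kit for patient tumours and no kit for these lines. The deposited values are a normalized signal, in which the authors divided the read count of each of 18889 genes by 1 factor per library. To recover the factors, the smallest value above 0 in each library was taken as 1 read. With this, 100.0% of values in each library came out as whole reads (tolerance 0.1). The labels list hg38 and edgeR, whereas the study's methods name TopHat, hg19, Ensembl, DESeq2 and, for CPM after TMM scaling, edgeR; which made these values, and whether the counting used strand, is not given in the sources used here. Scaling by 1 factor per library leaves gene length in the values, so the order, sum and shares of the mucins were taken per kilobase of merged exons. The marker sums, and the description of some members as low, used values not divided by length. Annotation was GENCODE on GRCh37, matched by identifier for 18183 genes (96.3%).

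Changes were fitted on log2(value + 1) with limma 3.58.1 (R 4.3.3) with an intensity trend, over the 8 libraries of a line, for genes at 0.5 or more in at least 4 libraries, with Benjamini-Hochberg adjustment over all genes tested and a threshold of 0.05. Line differences and the difference in response (an F test) came from 1 model of 6 groups. Every pair of replicates differed by more than sampling noise. Alternatives were other pseudocounts, filters and scalings, sample weights, a replicate block, each library left out, the fit of all 24 libraries, and, on recovered reads, edgeR 4.0.16 (quasi-likelihood) and DESeq2 1.42.0. On those reads edgeR called 3576 genes for HCC1500, 4402 for MDA-MB-175 and 7397 for ZR-75-30. The fits per line were also run on simulated counts with known changes. Those counts had a fixed spread and no deviating library, so that run does not bear on HCC1500 HG replicate 3.

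The members and gene lists were chosen with earlier results of these data known. Besides the members, up to 3 genes called upward and 3 downward per list and line were named, by largest change among those with a mean of at least 10 in a group and no overlap between groups, with their values in other lines added where useful. The 3 genes most correlated with each abundant member, and genes overlapping or next to a member, were named too. SPDEF was given beside KLF4 outside these rules. A few genes that these rules or the marker lists would name are not reported here.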

Additional observations from a re-analysis of the deposited data

Results flagged for a closer look

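Listed here are 11 groups of 4 libraries in which 1 library stood apart. Its gap to the next, as a share of the group's range, exceeded Dixon's 95% critical value. By chance this happens in about 1 in 20 groups. The number of groups looked at is not given here, so 11 cannot be set against that rate. Low groups are left out, such as MUC15 in HCC1500 LG (1.53, against 3.80 to 4.13) and MUC5B in ZR-75-30 HG (0, against 2.03 to 2.12). Left out too are listed genes in lines where the naming rule did not pick them, such as TFF3 in HCC1500 HG. Of the members the groups listed were MUC1 in HCC1500 HG, where the odd library read 229 (replicate 3), MUC5B in the same group at 379 (replicate 3), and MUC20 in HCC1500 LG at 28.0 (replicate 3). Of the listed genes they were PODXL at 266, GALNT10 at 1252 and ST6GALNAC1 at 210 in MDA-MB-175 LG, GALNT6 at 1792 in HCC1500 LG, TFF3 at 8785 in ZR-75-30 LG, and ST6GALNAC2 at 606, KLF4 at 105 and TOLLIP at 516 in HCC1500 HG.

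The change with glucose also differed between lines for 33 of 50 genes, namely 3 of the 8 members and 30 of 42 named list genes, where 29.3% of all genes passed; the named genes had been chosen for a large change within a line. The largest minus the smallest log2 change over the 3 lines was 2.50 for MUC2, 1.76 for MUC5AC and 1.95 for MUC20, given as a description. For the listed genes the difference passed the limma F test at an adjusted p under 0.05. Among other mucins it was 1.26 for PODXL, 0.67 for CD164, 2.34 for MCAM and 1.77 for OVGP1. Among the genes that start O-glycans it was 0.52 for GALNT12, 0.49 for GALNT10, 0.61 for GALNT7, 0.79 for GALNT11, 1.0 for GALNT4, 1.5 for GALNT14 and 0.90 for GALNT6. Among those that extend them it was 1.34 for FUT3, 1.12 for B3GNT3, 0.47 for B4GALT4, 1.70 for ST6GALNAC2, 1.83 for GCNT3, 1.60 for FUT2, 1.27 for GCNT1, 0.98 for C1GALT1, 0.79 for ST3GAL4 and 0.60 for B4GALT1. Among genes of mucus-secreting cells it was 1.08 for KLF4, 2.43 for TFF1, 0.61 for AGR2 and 2.0 for BCAS1. All these differences include HCC1500 HG replicate 3. For TFF1 the HCC1500 change was 0.23 ± 0.34 with that library and -0.17 ± 0.04 without it, so its value of 2.43 depends on that library. Among the genes of the neighbour list it was 1.18 for THBS3, 0.90 for SDHAP1, 0.55 for TFRC, 0.63 for TOLLIP and 0.64 for SLC12A8.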

How the results depend on the processing

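No called log2 change of a member or named gene changed sign under an alternative, but the balance of upward and downward calls over all genes turned. MDA-MB-175 went from 2030 upward and 2338 downward to 2339 and 2069 with median-of-ratios scaling, 2347 and 2055 with edgeR, 2068 and 1861 with DESeq2 and 1095 and 916 in the fit of all 24 libraries. ZR-75-30 went from 3700 and 3590 to 3349 and 4155 at the same total, 3395 and 3557 with a filter at 10, 3698 and 3699 with edgeR, 3403 and 3527 without HG replicate 1 and 3342 and 3404 without HG replicate 3, and HCC1500 from 1221 and 2129 to 2323 and 2109 with DESeq2. Of values that answer a comparison, 329 stayed within 1.5 times under an alternative and 27 did not. The fit of all 24 libraries called 2011 genes in MDA-MB-175 (4368 in the line's own fit) and 5842 in HCC1500 (3350), and 7 genes of mucus-secreting cells in MDA-MB-175 (12) and 6 in ZR-75-30 (10). Sample weights called 9436 genes in HCC1500, 9148 for the response difference (5316), 22 O-glycan genes in HCC1500 (13) and 12 mucus-secreting genes there (2), which became 1 with a filter at 10 and 1 with edgeR. DESeq2 called 1 other mucin in ZR-75-30 (3). With each library left out in turn, the counts ran from 2015 (without LG replicate 2) to 9504 (without HG replicate 3) in HCC1500, 4765 to 8809 (without HG replicate 3) for the response difference, 1 (without HG replicate 2) to 3 for other mucins in ZR-75-30, 10 to 23 for O-glycan genes in HCC1500 and 1 to 12 for its mucus-secreting genes, the last value of both without HG replicate 3. In HCC1500 each LG library left out also gave 2015 to 2104 genes. The cause was not tested.

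Same-numbered replicates did not deviate together (mean correlation 0.04, 0.01 and 0.02 in the order MDA-MB-175, ZR-75-30, then HCC1500), and 1, 1 and 2 of 4 correlated best with their own number. With a replicate block the calls were 4525, 7542 and 1964, and 1 mucus-secreting gene in HCC1500.

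The log2 change of MUC20 ranged over the alternatives from 0.96 to 1.02 in MDA-MB-175, 2.77 to 2.89 in ZR-75-30 and 0.78 to 0.98 in HCC1500. That of MUC2 in ZR-75-30 ranged from -2.67 to -2.59, that of MUC5B in HCC1500 from -0.95 to -0.63, that of MUC1 there from -0.63 to -0.29, and that of MUC5AC in ZR-75-30 from -1.68 to -1.15, the last with a pseudocount of 5. At a few reads per library, MUC4, MUC15 in ZR-75-30 and MUC2 in HCC1500 are limited by depth.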
